A study of Homo sapiens with 4 samples.

Results

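The genes of the cytoplasmic ribosomal proteins were followed in FaDu cells, an established line of human hypopharyngeal squamous carcinoma, across hypoxia and knockdown of TET1. TET1 is a dioxygenase that oxidises 5-methylcytosine in DNA. Members were taken by name: symbols of the form RPL or RPS with a number (with A or X where it follows), and RPLP0, RPLP1, RPLP2 and RPSA. The row had to lie on an assembled chromosome and its gene ID had to stand on 1 row only. This gave 79 gene IDs with 77 symbols among the 62077 rows of the table, 48 named for the large (60S) subunit and 31 for the small (40S) subunit. RPL36A and RPL26 each stood under 2 IDs, of which 1 is annotated as a readthrough into a neighbouring gene. FAU and GNB2L1 also encode proteins of the cytoplasmic ribosome but carry other names, and their values are given beside the members.

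Each of 4 groups held 1 RNA-Seq library. N-scr and H-scr were scrambled control cells in normoxia and in hypoxia, and N-si and H-si were TET1-si cells under the same oxygen states. Hypoxic cells spent 19 h at 1% O2, and both oxygen states had 5% CO2. Per the study's methods the cells were infected with lentivirus that expressed shRNA from a pLKO.1-puro vector, with a scrambled shRNA for the controls. The study refers to the cells as clones, and its methods name no drug selection or cloning step for them. Levels are FPKM, fragments scaled by transcript length and by library size, and a change is a difference of log2(FPKM + 0.1) between 2 libraries. With 1 library per group no difference has a replicate check, no p-value is given, and every statement describes these 4 libraries.

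The ribosome is built from a small subunit, which decodes the mRNA, and a large subunit, which forms peptide bonds. Their proteins are made in near equal numbers and their mRNAs are among the most abundant of a growing cell. Most of these mRNAs begin with a cytosine followed by a run of pyrimidines, the terminal oligopyrimidine (TOP) motif, through which mTORC1 and LARP1 control their translation. Hypoxia is known to lower mTORC1 activity and ribosome production, and TOP control acts mainly on translation, which FPKM do not measure.

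The set of RefSeq (GRCh38.p14) start-site sequences used here covered 62 of the 77 symbols, at 77 annotated starts. Symbols without an entry included RPL5, RPL7, RPL8, RPL23, RPL23A, RPL30, RPL37, RPS2, RPS15A and RPS20. A cytosine at the first transcribed base with at least 4 pyrimidines after it stood at 46 of the 77 starts, or 59.7%, against 4.07% of the 35116 starts in the table. A selection of the members whose values are given further on is shown here, so that starts with a tract (the first 7) can be seen beside starts without one (the last 2). Each run holds 15 bases before the start and 15 from it, on the transcript strand, and capitals mark the pyrimidine tract from the first transcribed base. Where a gene had several annotated starts, the one with the longest tract is shown.
RPS16, chr19:39435935-39435964, minus strand: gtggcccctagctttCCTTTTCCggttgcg
RPS19, chr19:41860240-41860269, plus strand: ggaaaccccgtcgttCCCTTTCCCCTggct
RPL27A, chr11:8682777-8682806, plus strand: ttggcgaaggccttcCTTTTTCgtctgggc
RPL24, chr3:101686704-101686733, minus strand: ttcccatgattctctCTTTCTTTTCgccat
RPL38, chr17:74203663-74203692, plus strand: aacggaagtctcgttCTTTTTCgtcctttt
RPL26, chr17:8383179-8383208, minus strand: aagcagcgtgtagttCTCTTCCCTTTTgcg
RPS25, chr11:119018329-119018358, minus strand: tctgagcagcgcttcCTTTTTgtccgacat
RPS26, chr12:56041903-56041932, plus strand: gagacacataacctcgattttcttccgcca
RPL15, chr3:23916530-23916559, plus strand: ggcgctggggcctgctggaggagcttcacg

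The letters CTTTC stood within 10 bases before to 20 bases after 42.9% of member starts and 4.26% of all starts, on the transcript strand. CTTTT stood in the same window of 22.1% and 3.63%. Over the whole stretch from 250 bases before the start to 50 after it, on both strands, CCGGAAG, a form of the ETS-family site, stood at 33.8% of member starts and 10.3% of all. AAGATGGC stood at 7.79% and 2.89%, and TATAAA at 6.49% and 11.5%. CACGTG, an E-box, stood at 5.19% and 7.26%. The hypoxia-response core ACGTG, which the E-box contains, stood at 32.5% and 21.4%, and GCGTG at 49.4% and 36.5%. These matches are letters in a window and were not tested as sites.

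Library depth, recovered from the step size of low FPKM values, was 22450000 to 24500000 reads. TET1 itself was low in every library, at 0.129 FPKM in N-scr, 0.331 for H-scr, 0.0493 for N-si and 0.122 for H-si. The epithelial markers EPCAM, CDH1, KRT5, TP63, SFN and DSP were present in every library. KRT14 and KRT6A, basal and stress keratins, were at 42.1 to 109 FPKM in the scrambled libraries and at 0.357 to 1.41 in the TET1-si libraries. The summed level of the 8 epithelial markers was 3470 and 5040 FPKM in N-scr and H-scr, and 1255 and 2278 in N-si and H-si. KRT5 was the largest part, at 2673 and 3992.5 FPKM in N-scr and H-scr, and 524 and 1430 in N-si and H-si. SFN was also lower in the TET1-si library of each oxygen state, and DSP differed in direction. TP63 stood at 42.1 FPKM in N-si against 50.7 in N-scr, but was nearly equal in hypoxia, at 53.4 against 54.8. EPCAM and CDH1 were higher in the TET1-si libraries, EPCAM at 206 against 155 in normoxia and 163 against 102 in hypoxia. CDH1 stood at 267 against 179, and 399 against 292. The 4 fibroblast markers summed to 5.301 in N-scr, 28.6 for H-scr, 14.1 for N-si and 37.2 for H-si, nearly all COL1A1, with COL1A2 at 0. The 4 leukocyte markers summed to 19.9 to 26.8, nearly all CD68, with CD3E at 0. The 2 endothelial markers summed to 8.91 in N-scr, 17.8 for H-scr, 22.2 for N-si and 48.4 for H-si, mostly CDH5. These markers moved with the groups, and their part in the changes given next was not tested. In bulk RNA, fewer cells of a type and less RNA per cell cannot be told apart.

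Ribosomal protein genes made up a large part of the transcriptome in every library. Of the 79 gene IDs, 77 had a mean FPKM of at least 1 and none was at 0 in any library. The members summed to 16.5% of all FPKM in N-scr, 15.3% for H-scr, 14.9% for N-si and 15.1% for H-si. They filled 31 of the 50 and 58 of the 100 highest places among protein-coding genes. Leaving out the readthrough gene, 76 members stood at 100 FPKM or more in each library with a median of 1288 and quartiles of 928 and 1967.

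The highest member was RPS29, a zinc-binding protein of the small subunit, at 6065 FPKM in N-scr, 5379.8 for H-scr, 4809 for N-si and 5878 for H-si. RPL39, a short protein in the wall of the peptide exit tunnel, followed at a mean of 4753. RPS3, which lines the mRNA entry channel, stood at 3977, 4033, 4184.5 and 4213 FPKM in the order N-scr, H-scr, N-si, H-si. RPL14 and RPS2 completed the highest 5 with means of 3946 and 3652. The 4 values of RPS3 lay close together, while those of RPL14 ran from 5292.5 in N-scr to 3036 in H-si.

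At the other end, RPS26, which contacts the mRNA at the exit channel of the small subunit, had the lowest mean of the 76, at 227 FPKM. RPS15, RPL29 and RPL17 were also among the lowest, with means of 362, 430 and 472. The mean of RPS29 was 24.4 times that of RPS26, although the ribosome holds 1 copy of each protein. FPKM are scaled by length, so these levels can be set side by side between genes, but values of the shortest transcripts depend on the length correction the authors used.

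Pseudogenes named after ribosomal proteins numbered 607 in the table, and together they held 0.0762% to 0.154% of the members' summed FPKM.

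**Figure D1:**
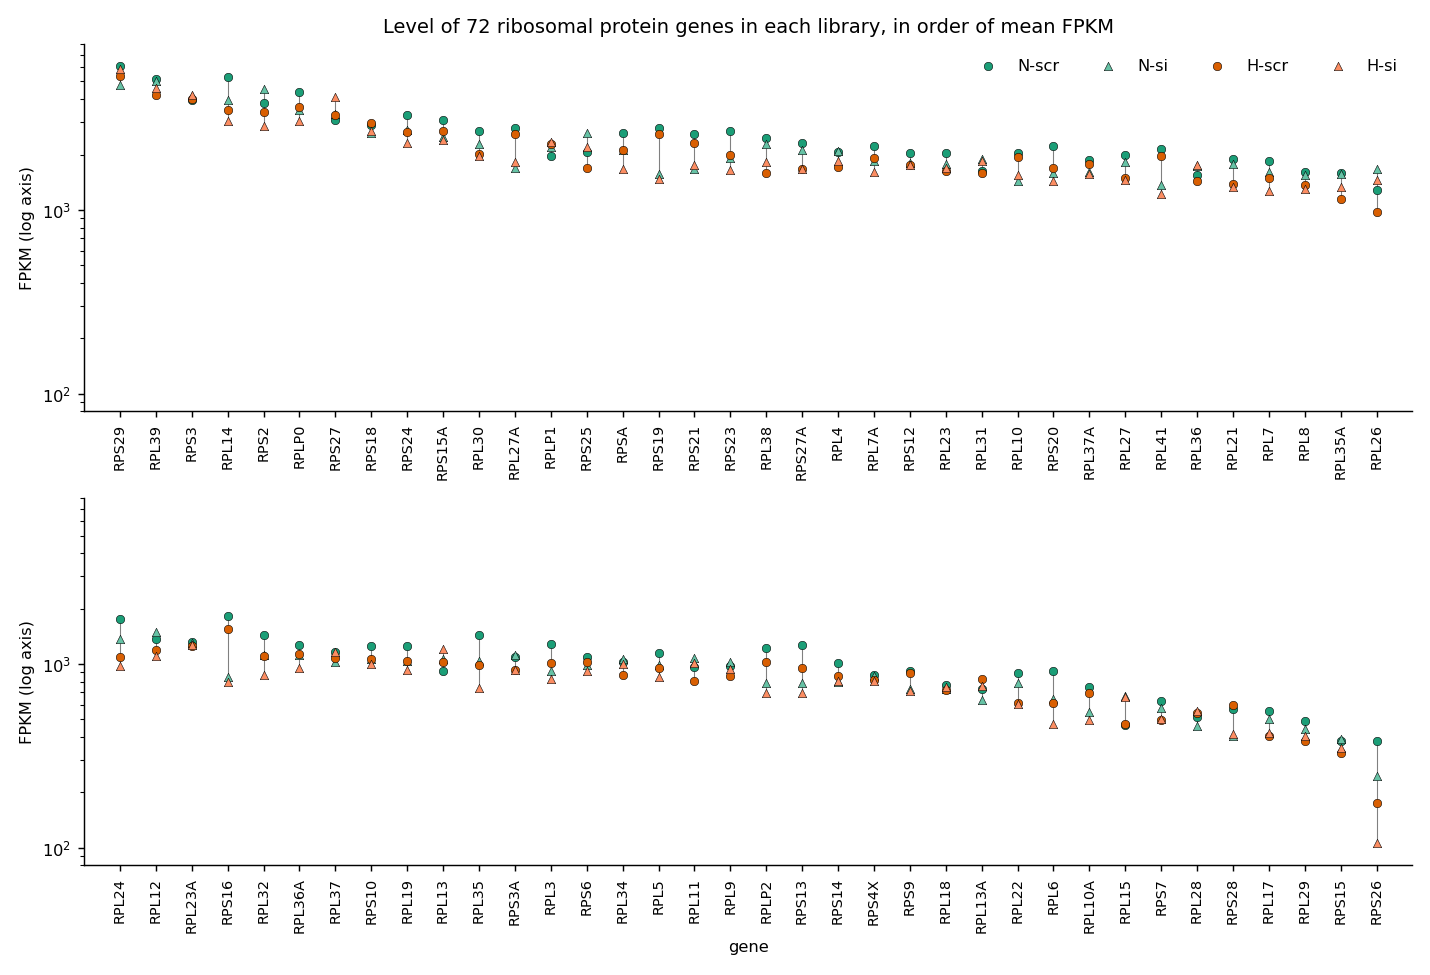
FPKM (log axis) of 72 ribosomal protein genes in each of the 4 libraries, ordered by mean; circles are scrambled control, triangles TET1-si, green normoxia and orange hypoxia, and a grey line spans the 4 values of a gene. Levels run from RPS29 at a mean of 5533 to RPS26 at 227, and RPS26 has a wide spread between libraries.

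Most members were highest in N-scr. Of the 76, 51 had their highest level in N-scr, 4 for H-scr, 14 for N-si and 7 for H-si. The lowest level was in H-si for 38 and in H-scr for 22. The same counts were not made over all genes, so they are not shown to be particular to the members. Other protein-coding genes of at least 100 FPKM also had medians below 0 in each comparison given below. The median member stood at 1439 FPKM in N-scr, 1193 for H-scr, 1331 for N-si and 1184 for H-si.

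Hypoxia in scrambled cells went with lower levels of most ribosomal protein genes. The 77 members had a median change of -0.23, with quartiles of -0.35 and -0.10, and 66 of them were below 0, where 46.4% of the 15057 genes that passed the same minimum were below 0. At least 1.2-fold lower were 31 members, against a background of 29.3% of all genes, and 0 were at least 1.2-fold higher, against 37.6%. The 1.2-fold line is 0.26 on the log2 scale. Rescaled to TPM the split was 4 higher and 17 lower, with the median of all genes at 0.16. In FPKM all 15057 genes had a median of 0.05, but 1195 other protein-coding genes of at least 100 FPKM had a median of -0.22, close to that of the members. The members spanned a narrower range than those abundant genes, whose quartiles were -0.51 and 0.14.

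RPS26 (ENSG00000197728, hg19 chr12:56435637-56438116) stood apart from the other members. Its FPKM was 382 in N-scr, 176 for H-scr, 245 for N-si and 106 for H-si, so that both hypoxic libraries were below both normoxic ones. The change with hypoxia was -1.12 in scrambled cells, with a 95% counting interval of -1.20 to -1.03, or 2.17-fold lower. It was the single member past 2-fold in that comparison, where 4.53% of all genes were at least 2-fold lower. In TET1-si cells the change was -1.21, with an interval of -1.32 to -1.10, and RPS26 was again the single member past 2-fold, where 8.66% of all genes were at least 2-fold lower. RPL41, a very short protein of the large subunit whose gene lies on the same stretch of chromosome 12, changed by -0.13 and -0.16 with hypoxia.

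After RPS26, the lowest changes with hypoxia in scrambled cells were in proteins of the large subunit. RPL24, which forms a bridge between the subunits, stood at 1752 FPKM in N-scr, 1090.0 for H-scr, 1365 for N-si and 973 for H-si, a change of -0.69 in scrambled and -0.49 in TET1-si cells. RPL38, a small surface protein known for its part in translation of Hox mRNAs, stood at 2463, 1588, 2285.5 and 1819.5 FPKM in the same order, a change of -0.63 and -0.33. Both genes were below their normoxic level in each knockdown state. RPL35, at the rim of the peptide exit tunnel, stood at 1442 FPKM in N-scr, 982 for H-scr, 1037 for N-si and 736 for H-si, with changes of -0.55 and -0.49.

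A few members were higher in hypoxia. RPLP1, an acidic protein of the stalk that recruits elongation factors, stood at 1974 FPKM in N-scr, 2274 for H-scr, 2189.6 for N-si and 2352 for H-si, a change of 0.20 in scrambled and 0.10 in TET1-si cells. RPL13A, a large-subunit protein also known for its role in interferon-gamma signalling, stood at 733, 833, 637 and 757 FPKM, a change of 0.18 and 0.25. The RPL36A readthrough (ENSG00000257529), which overlaps RPL36A, stood at 21.9, 26.1, 20.3 and 27.6 FPKM, a change of 0.25 and 0.44, while RPL36A itself (ENSG00000241343) stood at 1268, 1139, 1120.1 and 953, a change of -0.16 and -0.23. The counting interval of the readthrough was -0.04 to 0.54 in scrambled cells, which spans 0, and 0.15 to 0.74 in TET1-si cells. Reads of an overlapping pair cannot be assigned with certainty.

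In TET1-si cells the shift with hypoxia was smaller. The median change of the members was -0.14, with quartiles of -0.24 and -0.01, and 59 of 77 were below 0, against 47.8% of all genes. Of the members 16 were at least 1.2-fold lower, against 33.1%, and 4 were at least 1.2-fold higher, against 37.4%. Rescaled to TPM, 7 were lower and 7 higher and the median was -0.0047, and with median-of-ratios scaling 33 were lower and 1 higher. The median of all genes was 0.16 with TPM and -0.05 with median-of-ratios scaling. The size of the shift from 0 in this comparison therefore rests on the scaling, which moved all genes too. In FPKM the other abundant genes had a median of -0.32, below that of the members.

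RPS26 and RPS2 had the lowest changes in this comparison, and RPL35, RPL24, RPL6 and RPL12, of the large subunit, followed at -0.49, -0.49, -0.45 and -0.44. RPS2, near the mRNA entry channel, stood at 3797 FPKM in N-scr, 3431 for H-scr, 4534 for N-si and 2845 for H-si, so its change with hypoxia was -0.15 with the scrambled control and -0.67 after TET1-si. The RPL36A readthrough had the highest change. Next was RPS27, a zinc-finger protein of the small subunit, which stood at 3074.5, 3290.4, 3326 and 4131 FPKM, a change of 0.10 and 0.31. RPS29 had a change of -0.17 in scrambled and 0.29 in TET1-si cells. RPS2 was lowest in H-si, and RPS27 was highest there.

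**Figure D2:**
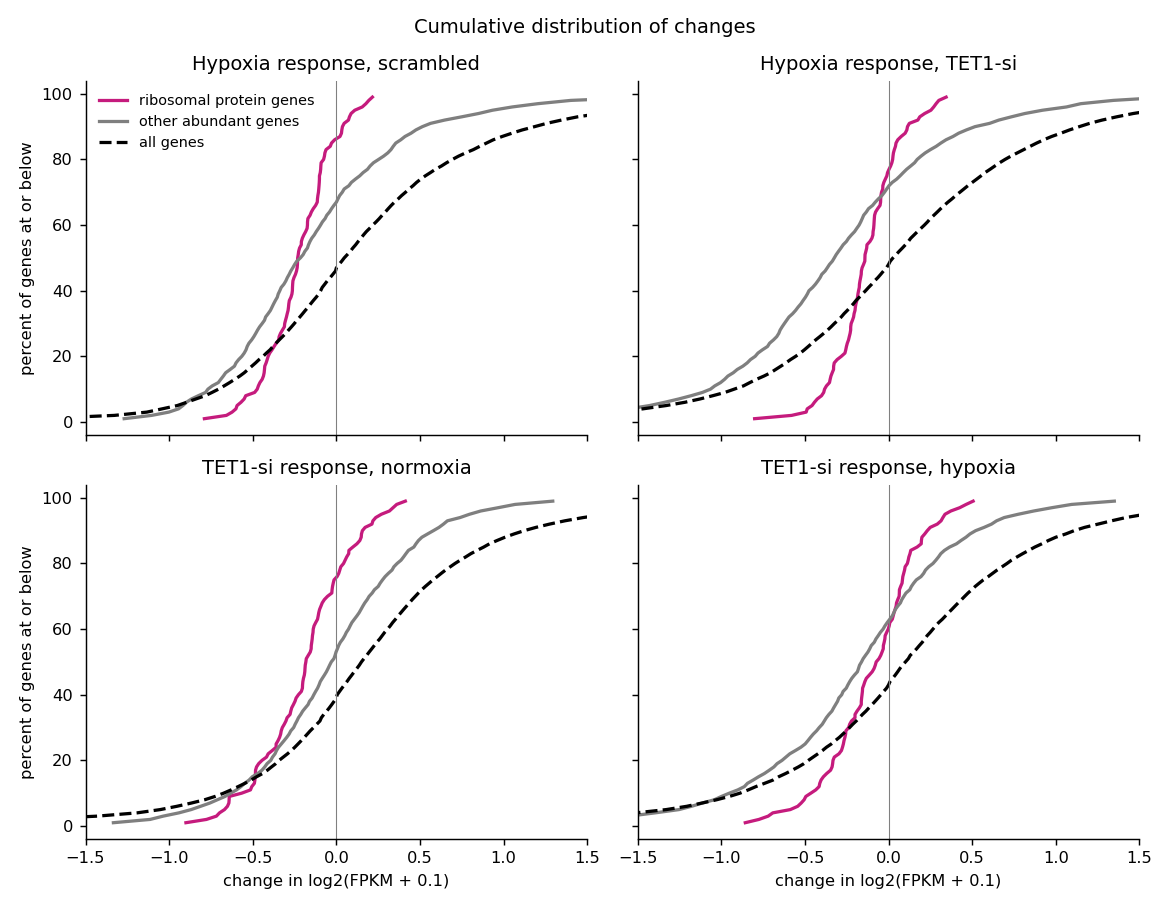
Cumulative percent of genes (y axis) at or below a change in log2(FPKM + 0.1) (x axis) in the 4 comparisons, for 77 ribosomal protein genes, 1195 other protein-coding genes of at least 100 FPKM and all 15057 genes. The curve of the ribosomal protein genes is steeper than both others, and its middle lies left of all genes in each panel.

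The members' hypoxia responses in both knockdown states, which share no library, ranked the genes in a like order. Across 77 genes Pearson's r was 0.82 and Spearman's rho 0.80, and r was 0.77 without RPS26. The points share the libraries' composition, and genes are not independent replicates. Lower in hypoxia in both states were 58 members, against 35.7% of all genes, 10 were higher in both and 9 differed in sign. At least 1.2-fold lower in both were 13 members, against 21.4%. Subtracting the scrambled response from the TET1-si response gave a median of 0.09 over the members and -0.06 over all genes, and 59 members were above 0, against 44.6%. At the 1.2-fold line the difference was above for 3 members, against 23.6% of all genes, and below for 1, against 33.4%. With 1 library per group, this difference was not tested.

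Knockdown of TET1 in normoxia went with lower levels of most members. Their median change was -0.18, with quartiles of -0.36 and -0.01, and 58 of 77 were below 0, against 39% of all genes, and 19 above it, against 60.3%. Of the members 28 were at least 1.2-fold lower, against 23.3%, and 4 were at least 1.2-fold higher, against 42.7%. With median-of-ratios scaling 51 were lower and 1 higher, and rescaled to TPM 24 were lower and 7 higher. The median of all genes was -0.0042 with median-of-ratios scaling and 0.20 with TPM. In FPKM the median of all genes was 0.15 and that of the other abundant genes -0.03, so the members stood below both.

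Under hypoxia the change with TET1-si was centred nearer to 0. The members' median was -0.07, with quartiles of -0.27 and 0.08, and 46 of 77 were below 0, against 42.9% of all genes, and 31 above it, against 56.5%. The 1.2-fold line was passed downwards by 21 members, against 28.5%, and 7 were at least 1.2-fold higher, against 40.2%. Rescaled to TPM, 16 were lower and 11 higher with a median of -0.0062, and with median-of-ratios scaling 35 were lower and 3 higher. The median of all genes was 0.17 with TPM and -0.03 with median-of-ratios scaling. In FPKM all genes had a median of 0.10 and the other abundant genes -0.16, so the members lay below the first and above the second.

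RPS16 and RPS19, of the small subunit, were the lowest members after TET1-si in both oxygen states. RPS16 (ENSG00000105193, hg19 chr19:39923847-39926588), near the decoding site, stood at 1818 FPKM in N-scr, 1542 for H-scr, 844 for N-si and 795 for H-si. Its change was -1.11 in normoxia, or 2.15-fold lower, with a counting interval of -1.15 to -1.07, and -0.95 in hypoxia. It was the single member past 2-fold in normoxia, where 5.56% of all genes were at least 2-fold lower, and under hypoxia 0 members were, against 8.35%. RPS19 (ENSG00000105372, hg19 chr19:42363988-42376994), the gene most often mutated in Diamond-Blackfan anaemia, stood at 2793, 2603, 1567 and 1469 FPKM, a change of -0.83 in both oxygen states. Both TET1-si libraries were below both scrambled libraries for each gene, and hypoxia changed RPS16 by -0.24 and -0.09 and RPS19 by -0.10 and -0.09.

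Other members were also lower after TET1-si. RPL27A, a protein of the large subunit, stood at 2787 FPKM in N-scr, 2590.3 for H-scr, 1687 for N-si and 1824 for H-si, a change of -0.72 in normoxia and -0.51 in hypoxia. RPL41 stood at 2149, 1969, 1359 and 1214 FPKM, a change of -0.66 and -0.70. RPS26, given above, changed by -0.64 and -0.73. For these 3 genes both TET1-si libraries were below the scrambled library of the same oxygen state.

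Among the members highest after TET1-si were RPL15, RPL26 and RPS25. RPL15, a large-subunit protein and a rare Diamond-Blackfan gene, stood at 463 FPKM in N-scr, 474 for H-scr, 667 for N-si and 663 for H-si, a change of 0.53 and 0.48, and hypoxia changed it by 0.03 and -0.01. RPL26, which is known to bind the p53 mRNA, stood at 1280.4, 971, 1661 and 1447 FPKM, a change of 0.38 and 0.57. RPS25, known for its part in initiation at viral internal ribosome entry sites, stood at 2073, 1698, 2635 and 2201 FPKM, a change of 0.35 and 0.37. For RPL15, RPL26 and RPS25, the TET1-si library was above the scrambled one in each oxygen state.

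**Figure D3:**
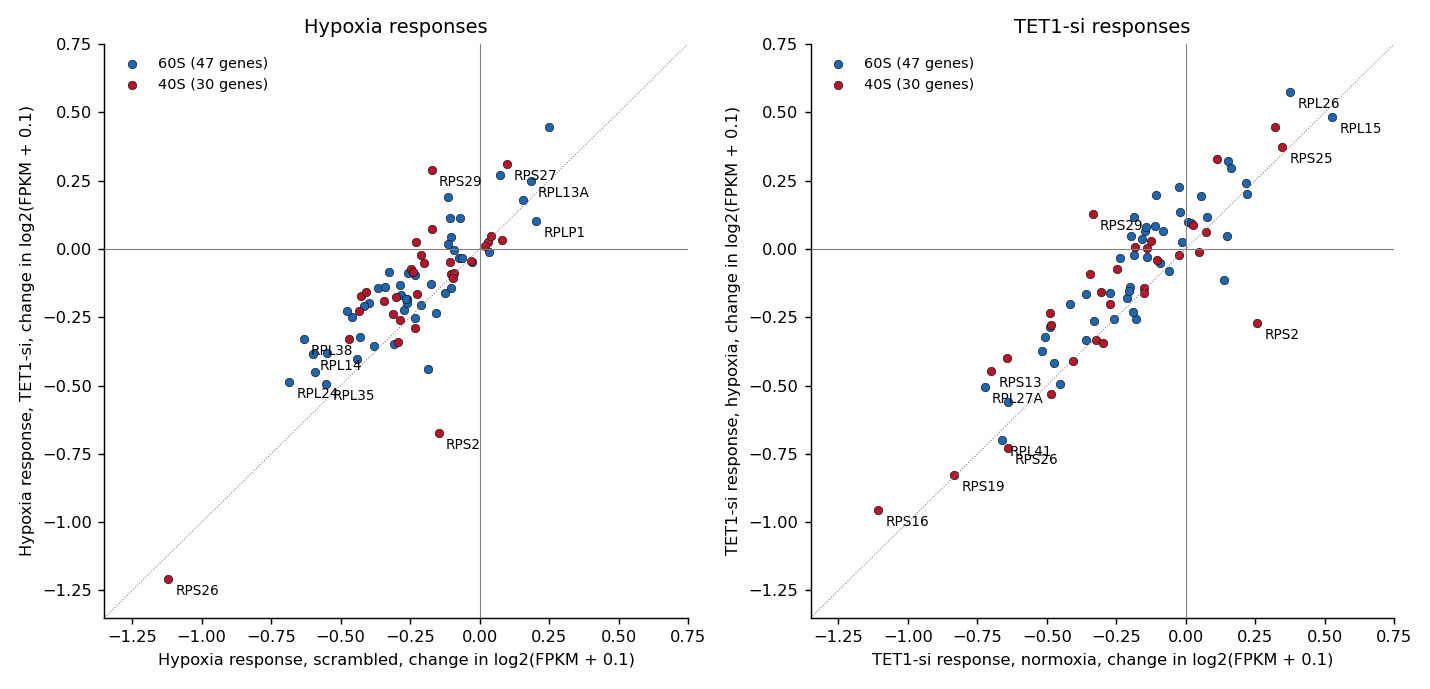
Change in log2(FPKM + 0.1) of 77 ribosomal protein genes. Left, hypoxia response in scrambled (x axis) and TET1-si cells (y axis). Right, TET1-si response in normoxia (x axis) and hypoxia (y axis). Blue is 60S, red is 40S and the dotted line is equality. RPS26 lies apart at -1.12 and -1.21 on the left, and RPS16 and RPS19 lie lowest on the right.

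TET1-si responses in the 2 oxygen states share no library either, and their order was alike, with r of 0.89 and rho of 0.85 over 77 genes and r of 0.86 without RPS16 and RPS19. Lower after TET1-si in both states were 43 members, against 28.7% of all genes, 16 were higher in both and 18 differed in sign, of which 15 were lower in normoxia and higher in hypoxia. In both oxygen states 20 were at least 1.2-fold lower, against 15.7%, and 4 were at least 1.2-fold higher in both, against 29.4%. The level and the annotated canonical transcript length of a member were weakly correlated with its change in the 4 comparisons. Over 76 genes r lay between -0.10 and 0.16 and rho between -0.06 and 0.18. The canonical length was 7573 bp for RPL37 and 7136 bp for RPL14. It need not be that of the transcripts present, whose length was not tested.

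The TET1-si changes of the members went with the changes of other genes beside them on the chromosome. For 67 members with at least 5 other protein-coding genes of at least 5 FPKM within 1 Mb, the member's change was set against the median change of those neighbours. The correlation was 0.69 (rho 0.58) for TET1-si under hypoxia and 0.62 (rho 0.53) under normoxia. With hypoxia the same correlation was 0.19 among scrambled libraries and 0.25 among TET1-si libraries. These values describe genes of the same libraries and were computed after the members' changes had been seen. The same correlation was not computed for other genes, so it is not shown to be particular to the members. With windows of 0.5 Mb (53 members) they were 0.63 and 0.59 for TET1-si, and over 61 members whose windows do not overlap 0.67 and 0.60. Without RPS16, RPS19, RPS26 and RPL41 they were 0.56 and 0.51.

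On chromosome 19, which holds 12 members, the neighbours of RPS16 had median changes of -0.44 in normoxia and -0.72 in hypoxia, and those of RPS19 -0.44 and -0.54. RPS9, farther along the long arm, went the other way from its neighbours, at -0.32 and -0.33 against 0.30 and 0.37. On chromosome 12 the neighbours of RPS26 had -0.37 and -0.61 and those of RPL41 -0.39 and -0.61, and the windows of these genes overlap. On chromosome 11 RPS25 had neighbours at 0.76 and 0.77, and on chromosome 17 RPL26 had neighbours at 0.58 and 0.56. RPL15 was above its neighbours, which had medians of 0.18 and 0.19, and RPS21 on chromosome 20, at -0.64 and -0.40, was below its own at 0.20 and 0.16. Differences between the scrambled and TET1-si lines and effects of the knockdown cannot be told apart in these libraries.

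**Figure D4:**
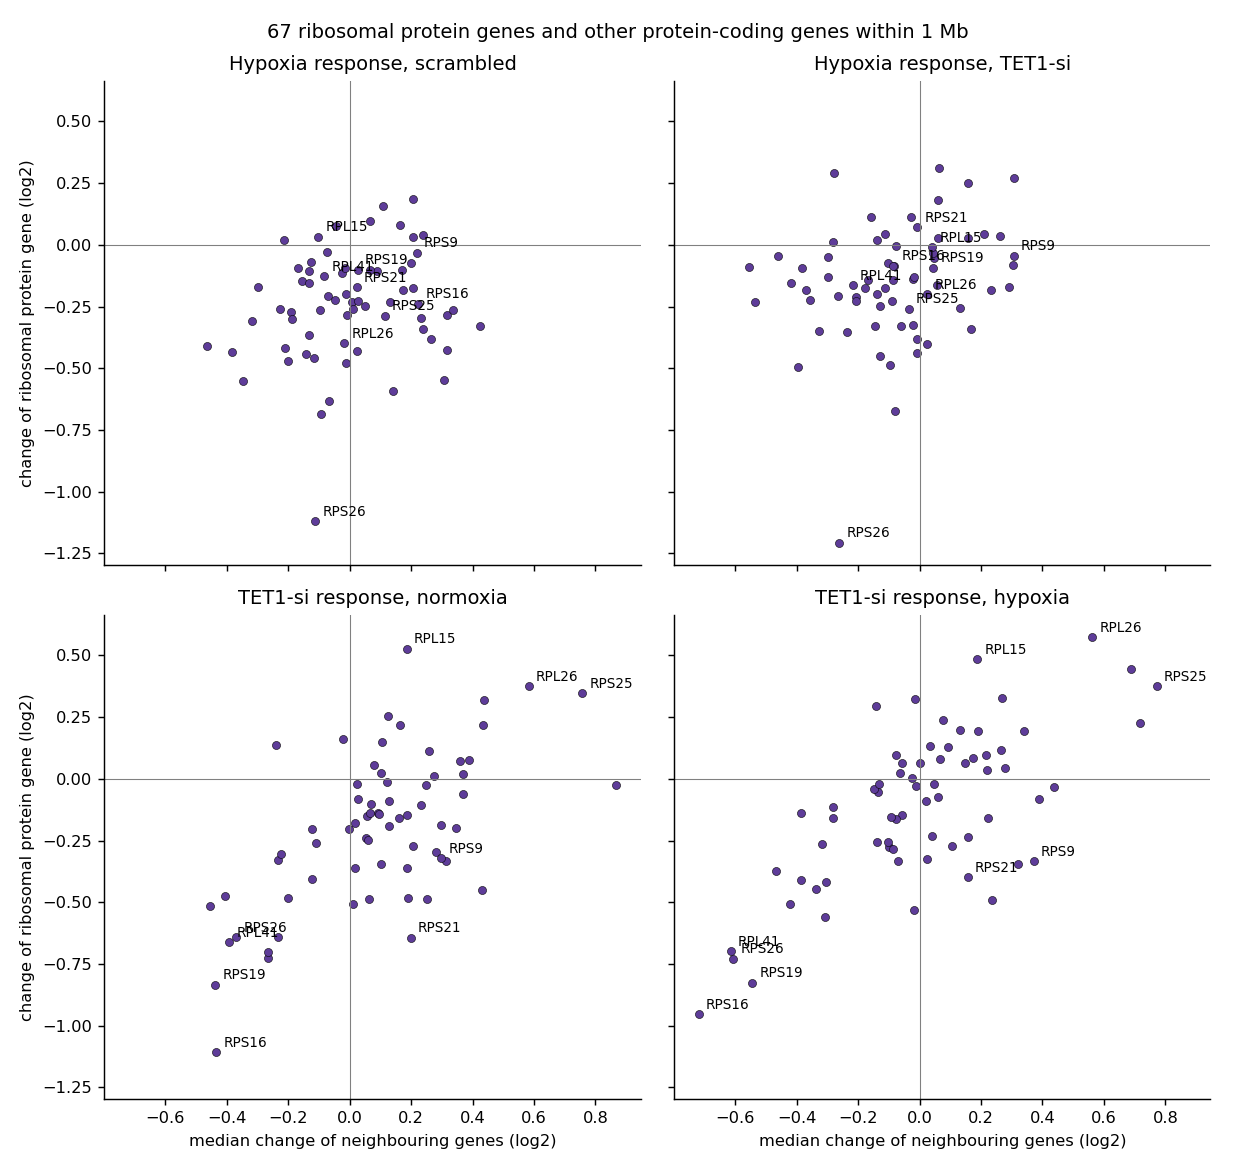
Change of each of 67 ribosomal protein genes (y axis, log2) against the median change of other protein-coding genes within 1 Mb (x axis, log2) in the 4 comparisons. The points run from lower left (RPS16, RPS19) to upper right (RPL26, RPS25) in both TET1-si panels, with r of 0.62 in normoxia and 0.69 in hypoxia, and r is 0.19 and 0.25 in the hypoxia panels.

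By subunit, the 47 large-subunit genes had median changes with hypoxia of -0.26 in scrambled and -0.16 in TET1-si cells, and the 30 small-subunit genes -0.22 and -0.09. With TET1-si the large-subunit medians were -0.16 in normoxia and -0.03 in hypoxia, and the small-subunit medians -0.26 and -0.15. The ratio of summed 60S to summed 40S FPKM was 1.26 in N-scr, 1.18 for H-scr, 1.29 for N-si and 1.22 for H-si. The 3 stalk genes differed in direction. RPLP0, the stalk base, stood at 4377.5 FPKM in N-scr, 3648 for H-scr, 3482 for N-si and 3036 for H-si, RPLP2 at 1223, 1019, 784 and 691, and RPLP1, given above, was lowest in N-scr.

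Several members have roles known beyond the ribosome. RPL5 and RPL11, which bind MDM2 together with 5S rRNA, stood at 1141 and 967 FPKM in N-scr, 946 and 808 for H-scr, 992 and 1073 for N-si, and 849.7 and 1009.9 for H-si. Both were lower in hypoxia in each knockdown state, while TET1-si changed RPL5 by -0.20 and -0.16 and RPL11 by 0.15 and 0.32. RPS14, lost in the 5q minus syndrome, stood at 1011, 864, 796 and 811 FPKM in the order N-scr, H-scr, N-si, H-si. RPS6, the substrate of S6 kinase, stood at 1097, 1027, 988 and 917 FPKM, and RPS4X at 871, 817, 855 and 804, both within a narrow range. RPL10, a protein that joins the large subunit late, stood at 2036, 1939, 1431 and 1549 FPKM, and RPSA, also known as the laminin receptor, at 2607, 2125, 2122 and 1674.

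Of 19 listed Diamond-Blackfan genes 18 passed the minimum. Their median changes with hypoxia were -0.25 in scrambled and -0.09 in TET1-si cells, and with TET1-si -0.17 in normoxia and -0.00078 in hypoxia. At least 1.2-fold lower with TET1-si in normoxia were 7 and at least 1.2-fold higher were 2, and in hypoxia 4 were lower and 4 higher. Over all genes, 23.3% were lower and 42.7% higher in normoxia, and 28.5% and 40.2% in hypoxia. The 8 genes listed for binding MDM2 had medians of -0.26 and -0.09 with hypoxia and of -0.03 and 0.05 with TET1-si, in the same order. Those 8 had 3 genes at least 1.2-fold higher and 0 lower with TET1-si under hypoxia, and 3 of 8 (37.5%) is near the 40.2% of all genes.

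Members with a TOP-like start and those without had medians within 0.10 of each other. The 46 genes with the tract had medians of -0.23 and -0.12 with hypoxia, in scrambled and TET1-si cells, and -0.18 and -0.10 with TET1-si, in normoxia and hypoxia. The 16 genes without it at any annotated start had -0.27 and -0.17, and -0.21 and -0.03. RPS16, RPS19, RPL26 and RPS25, printed above, all carry the tract and lie at opposite ends of the TET1-si changes. RPS26 and RPL15 carry none at an annotated start, though a run of pyrimidines follows shortly after the RPS26 start. Whether the annotated starts are those used in these cells was not tested.

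Proteins of the ribosome with other names and paralogs of members were set beside them. FAU, which encodes RPS30, stood at 674 FPKM in N-scr, 513 for H-scr, 629 for N-si and 444 for H-si. GNB2L1, which encodes RACK1, stood at 1569.5, 1323, 1542.5 and 1389. Both were lower in hypoxia in each knockdown state.

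The paralog RPL22L1 showed a larger hypoxia change than RPL22, the gene it duplicates. RPL22L1 stood at 152 FPKM in N-scr, 53.7 for H-scr, 148 for N-si and 72.4 for H-si, a change of -1.499 and -1.03. RPL22 stood at 893, 611, 784 and 602 FPKM, a change of -0.55 and -0.38. RPL39L stood at 9.72, 6.94, 34.2 and 13.7 FPKM and was higher in the TET1-si library of each oxygen state, by 1.803 in normoxia and 0.97 in hypoxia. RPL36AL ranged from 238 to 282 FPKM, RPL26L1 from 44.8 to 83.0 and RPS27L from 49.3 to 54.3. RPL10L was listed at 0 in all 4 libraries and RPL3L, a muscle paralog, was at most 0.363. The readthrough RPL17-C18ORF32, which overlaps RPL17, stood at 53.6, 10.7, 30.2 and 12.1 FPKM, while RPL17 stood at 556, 404, 503 and 423.

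Other lists from the protein synthesis machinery had lower medians with hypoxia than the cytoplasmic ribosomal protein genes. Of 77 mitochondrial ribosomal protein genes, 67 were at least 1.2-fold lower in scrambled and 65 in TET1-si cells, with medians of -0.59 and -0.68. The shares of all genes were 29.3% in scrambled and 33.1% in TET1-si cells, against which the counts of the next lists are also to be read. Their medians with TET1-si were 0.13 in normoxia and 0.10 in hypoxia, close to those of all genes. Of 35 initiation factors 27 were at least 1.2-fold lower in each knockdown state, with medians of -0.50 and -0.57. Of 31 proteasome subunits, a comparison list outside translation, 30 were at least 1.2-fold lower in each, with medians of -0.53 and -0.65. The 21 other RNAs with a TOP start had medians of -0.39 and -0.38 with hypoxia, and the 10 elongation factors and partners -0.34 and -0.35. These lists share genes, among them EEF1A1, EEF2 and TPT1, so their medians are not separate results. The TOP list also holds FAU, GNB2L1 and the noncoding GAS5 and SNHG1.

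Within the last 2 lists single genes differed widely. EEF1A1, the factor that delivers aminoacyl-tRNA, stood at 4104 FPKM in N-scr, 4095 for H-scr, 3184 for N-si and 3172 for H-si, while NPM1, a nucleolar assembly factor, stood at 4852, 2522, 4051 and 1893. TPT1 was higher in hypoxia, at 964, 1523, 1647 and 2262 FPKM. Outside these lists, DDIT4, a hypoxia-induced brake on mTORC1, stood at 119 FPKM in N-scr, 352 for H-scr, 48.9 for N-si and 233 for H-si. It was higher in the hypoxic library of each knockdown state. Its list of 8 mTORC1 brakes on translation was mixed, with median hypoxia changes of 0.03 in scrambled and -0.33 in TET1-si cells. At least 1.2-fold higher were 3 in scrambled and 3 in TET1-si cells, against 37.6% and 37.4% of all genes. At least 1.2-fold lower were 3 and 4, against 29.3% and 33.1%.

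**Figure D5:**
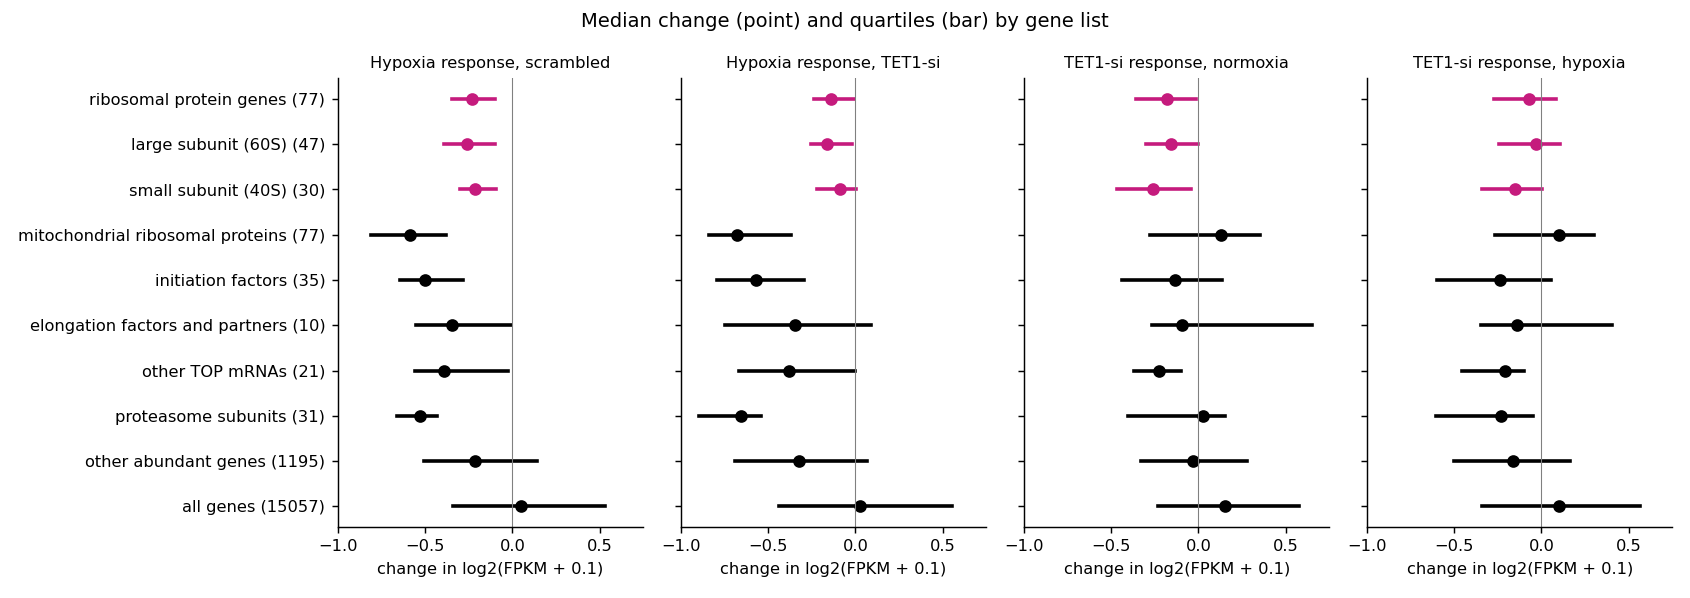
Median change (point) and quartiles (bar) in log2(FPKM + 0.1) (x axis) for each gene list, with the number of genes in brackets, in the 4 comparisons. In both hypoxia panels the ribosomal protein genes lie nearer to 0 than mitochondrial ribosomal proteins, initiation factors and proteasome subunits, and in the normoxic TET1-si panel they lie at -0.18 while all genes lie at 0.15.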

How the data were processed

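RNA was measured in 4 FaDu libraries, 1 per group. The deposited values are gene-level FPKM, which the authors made with TopHat and Cufflinks on hg19 with Ensembl annotation from TruSeq mRNA libraries (Illumina HiSeq, reads of 100 bp). Tool versions, strand use and the handling of reads with several matches are not given in the sources used here, and labels and methods differ on single or paired ends. FPKM depend on the length correction and on the library's composition. Every value column was mapped to a library (0 unmapped).

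Changes were differences of log2(FPKM + 0.1), which understate the change of low genes, over gene IDs on 1 row with a mean FPKM of at least 1. Depth was recovered from 5805 single-exon genes, whose low values were whole reads in 96.4% to 97.1% of cases, within 0.05 reads. Exact Clopper-Pearson 95% intervals rest on reads estimated at the canonical GENCODE v44lift37 transcript, taken at no more than 600 bp, and cover counting error only. Estimated reads per member, the readthrough gene aside, were at least 924 in a library and half-widths at most 0.12. With 1 library per group no test was run. The method was tested on simulated data.

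Named genes were the 3 highest and 3 lowest changes of each of the 4 comparisons, the 5 highest and lowest levels, and a list of textbook roles. A few genes that these rules name are counted in the totals and are otherwise not reported here, nor drawn by name. RPS21, RPS9 and comparison genes such as EEF1A1, NPM1, TPT1 and DDIT4 were named after their values were seen. Members and lists were chosen with earlier results of these data known. Python 3.11.15, numpy 2.4.6, pandas 2.3.3, scipy 1.17.1 and matplotlib 3.10.9 were used. Scalings, pseudocounts, filters and member definitions were varied.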

Additional observations from a re-analysis of the deposited data

Results flagged for a closer look

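The 6 members given here had hypoxia or TET1-si responses of opposite sign in both states, with both 95% counting intervals apart from 0. They are not the only ones. RPS21 changed with hypoxia by -0.17 in scrambled and 0.072 in TET1-si cells. RPL12 changed with TET1-si by -0.11 under hypoxia and 0.14 under normoxia, also with intervals apart from 0. Such cases were not counted over all members or all genes, so they are not shown to be particular to these. The difference between the states was not tested, because each group held 1 library. RPL10 changed with hypoxia by -0.071 with the scrambled control and 0.11 after TET1-si, and RPL27A by -0.11 and 0.11. RPS29, the most abundant member, changed with hypoxia by -0.17 in scrambled and 0.29 in TET1-si cells, and with TET1-si by 0.13 under hypoxia and -0.33 under normoxia, since its level was lowest in N-si. RPS2 went the other way, with TET1-si changes of -0.27 under hypoxia and 0.26 under normoxia, since its level was highest in N-si. RPL38 changed with TET1-si by 0.20 under hypoxia and -0.11 under normoxia, and RPL29 by 0.080 and -0.14. The canonical RPS29 transcript is 295 bp long, and values of such short transcripts depend on the length correction, which the counting intervals do not cover.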

How the results depend on the processing

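No paired analysis was possible because each group holds 1 library. Under another pseudocount, no filter on low values, and other member definitions (with ribosome proteins of other names, or without readthrough genes), every median and count stayed within 0.05 (log2) or 1.5 times of the reported one. Scaling moved them. The median of all genes shifted with TPM by 0.12, 0.14, 0.07 and 0.05 and with median-of-ratios scaling by -0.10, -0.08, -0.13 and -0.15, for hypoxia in scrambled and TET1-si cells and TET1-si under hypoxia and normoxia. In that order, the members' medians were -0.11, -0.0047, -0.0062 and -0.13 with TPM, and -0.35, -0.23, -0.22 and -0.35 with median-of-ratios scaling. Upper-quartile scaling gave -0.29, -0.14, -0.19 and -0.36. Members at least 1.2-fold lower numbered 17, 7, 16 and 24 with TPM, 49, 33, 35 and 51 with median-of-ratios and 43, 16, 33 and 52 with upper-quartile scaling. Those at least 1.2-fold higher numbered 4, 7, 11 and 7 with TPM, 0, 1, 3 and 1 with median-of-ratios and 0, 4, 3 and 1 with upper-quartile scaling. Shares of all genes past 1.2-fold were not counted under these scalings, so the rescaled counts cannot be set against the FPKM shares. The median difference of hypoxia responses was 0.15 with upper-quartile scaling. Relative to all genes the members' medians were -0.28, -0.17, -0.17 and -0.33. Relative to the other abundant genes, a comparison chosen after seeing the data, they were -0.016, 0.18, 0.088 and -0.15, so the sign turned for hypoxia in TET1-si cells and for TET1-si under hypoxia. The cause was not tested. The members' share of FPKM was 17.55% and 17.6% for N-scr, 16.2% and 16.3% for H-scr, 15.8% and 15.9% for N-si, 16.1% and 16.2% for H-si, over loci longer than 200 bp and over such loci of expressed genes. The neighbour alternatives were also chosen after seeing the data. Each of the 76 members at 100 FPKM or more had enough reads for counting error to be small. For these the missing replicates, not depth, limit what the differences show.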
